A study of Mus musculus with 2 samples.

Results

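The enzymes of haem synthesis were followed by 9 genes, Alas1, Alas2, Alad, Uros, Urod, Cpox, Ppox, Fech and Blvrb, of 19057 genes with a named probe on the array. All 19 probes annotated to these genes were taken, in the order of the pathway, with the signal and the detection p of each. The signals come from bone marrow LSK cells, the lineage-negative cells that carry Sca1 and c-Kit and include haematopoietic stem cells and early progenitors. A sample with the genotype Control and a sample with the genotype Ago2 Hem KO, called the knockout in what follows, were measured, both of strain C57BL/6J, each on 1 Illumina bead array. The labels spell out neither the allele nor the driver of the deletion, and give neither the age of the mice nor how many were pooled. Ago2, the deficient gene, encodes the Argonaute protein that microRNAs guide to their messenger RNA targets.

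With 1 array per genotype there was no spread between replicates, no test was run, and precision is limited by the number of arrays. The Control array had 14834 of 45281 probes above background and the knockout array 15594. A probe is called detected where its detection p was under 0.01, which held from a signal of 97.8 upwards in the Control and of 101 in the knockout. Differences are given as the knockout's log2 signal minus the Control's, after background correction and quantile normalization. Over the 8212 genes detected on both arrays their median was -0.05, and the central 95% ran from -0.55 to 0.53. As a guide to disagreement between probes, gaps between the differences of a gene's 2 brightest probes were taken over 3016 genes that had them. Their SD was 0.29, or 0.207 per probe after division by the square root of 2. Both probes read the same 2 samples and arrays, so these gaps leave out variation between samples and between arrays. The 3 Ago2 probes were 2.44-fold, 1.73-fold and 1.36-fold lower in the knockout after normalization, at deposited signals of 288 and 180, 226 and 181, and 106 and 103, and all were detected on both arrays. Whether they lie in the deleted part of the gene is unknown here, and a probe outside it checks nothing. Among genes that mark the sorted cells, Kit had signals of 2071 and 2793 and Cd34 of 359 and 497 in the Control and the knockout, while Flt3 was not detected on either array. Cd48 was called in the knockout only, at signals of 95.3 and 108, and no value is given here for the gene of Sca1.

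Haem is built from glycine and succinyl-CoA by a chain of enzymes that starts and ends in the mitochondrion and passes through the cytosol in between. The first step, the joining of glycine and succinyl-CoA into aminolevulinic acid, sets the rate and is made by Alas1 in most cells and by Alas2 in developing red cells. Developing red cells make most of the body's haem, for haemoglobin, while other marrow cells need it for cytochromes, catalase and peroxidases. Blvrb is not a step of this synthesis: it encodes a reductase of biliverdin and flavins that is abundant in red cells, and biliverdin is a product of haem breakdown.

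Of the 19 probes, 12 were detected on both arrays, 2 on a single array and 5 on neither. They gave 7 genes a value on both arrays, left Cpox with a detected probe in the Control only and left Alas2 undetected. None of the 7 genes differed 2-fold, against 0.304% of all genes that were higher and 0.134% that were lower by that much. Only Blvrb was higher in the knockout by at least 25%, as 8.26% of all genes were, and no gene of the set was lower by at least 20%, as 12.7% of all genes were. The median difference of the 7 genes was -0.03, and 3 of them lay above 0, against 41.8% of all genes.

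**Figure D1:**
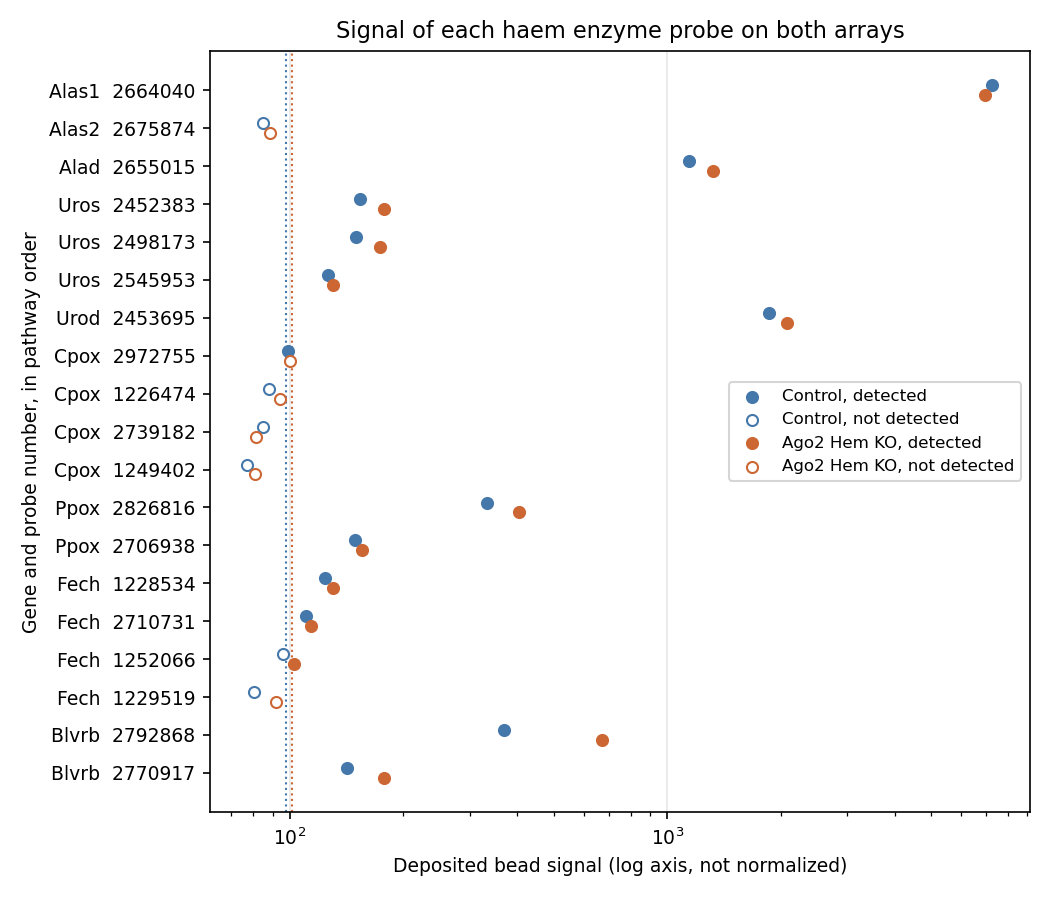
Deposited bead signal of each probe on the Control (blue) and the knockout array (orange), on a log axis, in pathway order. Filled points were detected, open points were not, and dotted lines mark the lowest detected signal of each array; the Blvrb probe at 369 and 669 has the widest gap between the arrays on this axis.

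Alas1, the aminolevulinic acid synthase of most cells, was measured by probe ILMN_2664040. Its signal was 7270 in the Control and 6938 in the knockout. Among the 12 probes detected on both arrays it was the only one with the lower signal in the knockout; the other 11 had the higher signal there, as the median detected probe did, by a ratio of 1.11. After normalization Alas1 was 1.19-fold lower, a log2 difference of -0.26, the lowest of the 7 genes. That value lay inside the central 95% of all genes, and 18.6% of genes had a difference as low or lower.

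Alas2, the erythroid aminolevulinic acid synthase, was not above background in either sample. Its single probe, ILMN_2675874, had signals of 84.8 and 88.4, with detection p of 0.431 in the Control and 0.369 in the knockout. Both signals lay below the level at which probes were called, so no fold is given. A probe without signal sets only a limit on this array and does not show that the transcript was missing.

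Alad encodes the cytosolic enzyme that joins a pair of aminolevulinic acid molecules into porphobilinogen. Its probe gave signals of 1140 in the Control and 1321 in the knockout, a difference of -0.03 after normalization. The difference lay near the middle of all genes, 53.9% of which were at or below it.

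Uros encodes uroporphyrinogen synthase, which closes the porphyrin ring, and was covered by 3 probes detected on both arrays. ILMN_2452383 had signals of 153 and 177 in the Control and the knockout, ILMN_2498173 of 149 and 173, and ILMN_2545953 of 126 and 130. The normalized differences were 0.05, 0.05 and -0.23, so the dimmest probe had the opposite sign to the other pair. Averaged over its probes, Uros differed by -0.04, where the brightest probe alone gave 0.05.

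Urod, the cytosolic decarboxylase that follows, had signals of 1860 in the Control and 2075 in the knockout on its single probe. The normalized difference was -0.07, close to the median of all genes, and 47.1% of genes lay at or below it.

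Cpox encodes coproporphyrinogen oxidase of the mitochondrial intermembrane space and was covered by 4 probes. Only ILMN_2972755 was called, in the Control, at a signal of 98.9 and a detection p of 0.00641. In the knockout the same probe had a signal of 99.8 and a detection p of 0.0171. The deposited signals were thus close, on either side of the lowest levels called on each array. After normalization, the Control's Cpox value stood 1.13-fold above the lowest detected level of the knockout array, or 0.17 on the log2 scale. That is less than the SD between probes of a gene, 0.207. The deposited signal was the higher in the knockout, so no direction is read from this bound. Of genes detected on either array, 2.56% were detected in the Control only and 4.95% in the knockout only. The other 3 Cpox probes had signals between 77.2 and 93.9 and were called on neither array.

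Ppox encodes protoporphyrinogen oxidase of the inner mitochondrial membrane. Its brighter probe, ILMN_2826816, had signals of 334 in the Control and 405 in the knockout, a normalized difference of 0.08. The dimmer probe, ILMN_2706938, had signals of 148 and 156 and a difference of -0.19. The pair disagreed in sign, and their mean was -0.06.

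Fech encodes ferrochelatase, which inserts iron into the ring and so makes haem. Probe ILMN_1228534 had signals of 124 in the Control and 130 in the knockout, and ILMN_2710731 of 110 and 114. Their normalized differences were -0.16 and -0.22, the same in sign, both within the central 95% of all genes. A further probe, ILMN_1252066, annotated to a cDNA sequence rather than a RefSeq transcript, was called in the knockout only, at signals of 95.8 and 103. The remaining probe, ILMN_1229519, was called on neither array. Fech was dim throughout, its signals reaching at most 130 against background means of 84.7 and 87.8.

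Blvrb differed most among the 7 genes with a value on both arrays. Its brighter probe, ILMN_2792868, had a signal of 369 in the Control and 669 in the knockout. The dimmer probe, ILMN_2770917, had 142 and 178. Both were higher in the knockout, by 1.68-fold and 1.21-fold after normalization, log2 differences of 0.75 and 0.28, and their mean was 0.51. By its brighter probe Blvrb ranked 70 from the highest among 8212 genes, above the central 95%, while the dimmer probe lay inside that range. The gap between the 2 probes was 0.47 on the log2 scale, wider than the SD of such gaps over all genes.

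**Figure D2:**
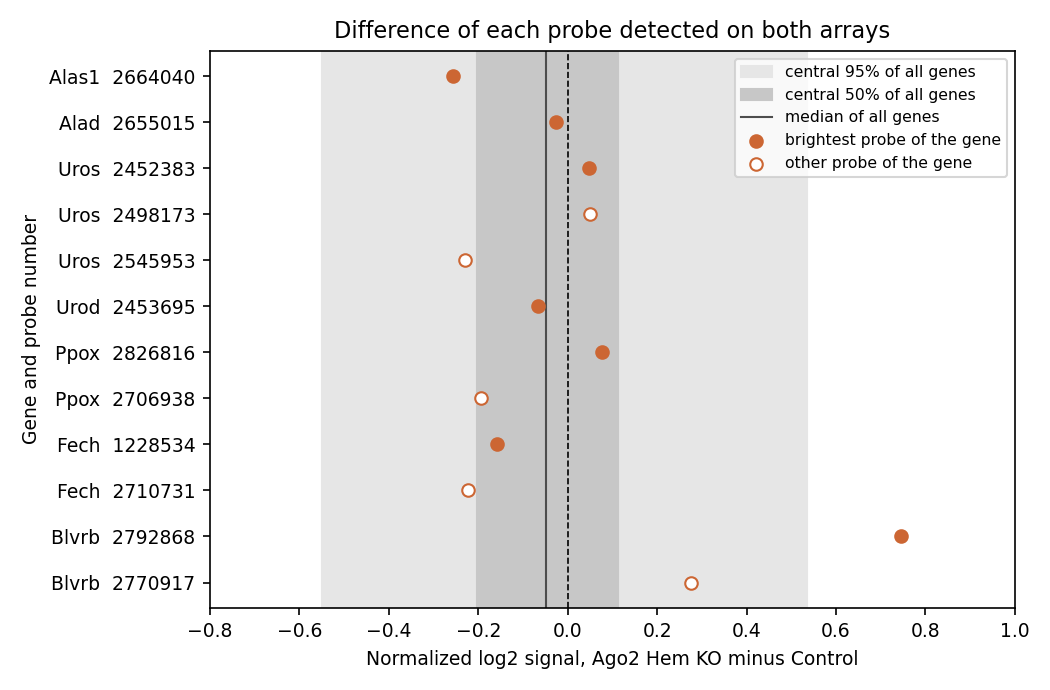
Normalized log2 difference, Ago2 Hem KO minus Control, of the 12 probes detected on both arrays, with grey bands for the central 50% and 95% of 8212 genes. Filled points are the brightest probe of each gene; the brighter Blvrb probe at 0.75 is the only point outside the wider band.

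The sequences before the gene starts show the setting of the isozyme pair, of Cpox, and of Blvrb, the gene with the largest difference. Windows of 250 bases upstream of RefSeq start sites of build GRCm38.p6 were taken for 8 of the 9 genes, 12 windows in all. Fech was left out of this search, so nothing is said of its start. They were searched on both strands for the binding motif of GATA factors, which drive red cell genes (GATA with A or T before it and A or G after it), and for that of the respiratory chain regulator NRF-1 (GCGC on both sides of any 2 bases). Capitals mark the matches, all sequences run 5′ to 3′ along the gene's strand, and a match is a description of letters, not a site of binding. Alas1 is shown for chr9:106247906-106247935 (minus strand), which lies before the second of its listed starts and after the first. Alas2 is shown for chrX:150547167-150547416 (plus strand), Cpox for chr16:58669958-58670207 (plus strand) and Blvrb for chr7:27447728-27447977 (plus strand).
Alas1: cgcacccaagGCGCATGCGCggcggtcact
Alas2: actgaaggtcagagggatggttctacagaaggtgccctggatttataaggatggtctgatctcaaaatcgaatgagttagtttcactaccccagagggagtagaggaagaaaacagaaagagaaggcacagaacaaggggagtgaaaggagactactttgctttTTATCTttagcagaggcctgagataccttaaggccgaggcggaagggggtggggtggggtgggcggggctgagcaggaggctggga
Cpox: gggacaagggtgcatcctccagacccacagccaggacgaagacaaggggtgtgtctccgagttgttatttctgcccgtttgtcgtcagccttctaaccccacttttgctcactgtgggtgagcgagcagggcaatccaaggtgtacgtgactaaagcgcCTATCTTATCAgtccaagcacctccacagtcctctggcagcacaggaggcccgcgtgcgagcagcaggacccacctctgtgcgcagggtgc
Blvrb: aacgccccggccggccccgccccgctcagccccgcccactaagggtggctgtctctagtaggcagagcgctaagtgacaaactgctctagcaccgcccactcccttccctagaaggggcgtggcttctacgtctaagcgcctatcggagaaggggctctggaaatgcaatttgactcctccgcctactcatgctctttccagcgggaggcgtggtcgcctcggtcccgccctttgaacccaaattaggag

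Alas2 had 1 GATA match, which began 86 bases before the start. Cpox had 2 that overlap by a base, from 91 to 81 bases before the start. The first Blvrb window, shown here, held none, and that before its second listed start held 1. In all, 4 of the 12 windows held a GATA match, that before the second listed start of Uros being the remaining one, against 26.5% of all 32851 windows of this length. NRF-1 matches were found before the second start of Alas1, where there were 2, and before the first start of Uros, where there was 1, which is 2 of the 12 windows against 4.98% of all windows. Among the genes with a GATA match, Alas2 was not detected, Cpox was called in the Control only, and Uros and Blvrb differed by 0.05 and 0.75.

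Around the enzymes, genes that supply the starting materials were described by counts. Of 8 genes that make glycine or succinyl-CoA, 7 were detected on both arrays, with a median of -0.13. Of these, 2 lay above 0, against 41.8% of all genes. Dld and Ogdh, subunits of the oxoglutarate dehydrogenase complex, were lowest at -0.39 and -0.38, which is 1.31-fold and 1.30-fold lower. Dlst, the remaining subunit of that complex, was highest at 0.15, though its detected probes ran from -0.02 to 0.77. The direction thus differed between subunits of the same complex.

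Carriers and porphyrin transporters had 16 of 18 listed genes on the array by name, and 9 were detected on both arrays. Of these 9, 4 lay above 0, against 41.8% of all genes, and the median was -0.02. Tspo, a porphyrin-binding protein of the outer mitochondrial membrane, was 1.27-fold higher in the knockout, at signals of 3367 and 4925. Its 3 probes had the same sign, from 0.05 to 0.34. Tspo2, its erythroid relative, was detected in the knockout only, at a signal of 127 against 93.2. In the reported processing its bound was 1.66-fold. The iron importer gene Slc25a28 was lowest, at -0.37 and signals of 1037 and 952, while Slc25a37, its erythroid counterpart, differed by 0.10. The 3 probes of Slc25a38, the glycine carrier of the pathway, ran from -0.02, the brightest, to 0.55.

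Iron-sulfur cluster assembly supplies the cofactor of Fech. All 8 of its genes detected on both arrays lay above 0, of 11 on the array, with a median of 0.16 against -0.05 for all genes. Nfu1, a cluster carrier, was highest at 0.62, a 1.53-fold difference that rests on signals of 112 and 152 near background. Glrx5, the mitochondrial glutaredoxin of cluster transfer, differed by 0.28 and the scaffold gene Iscu by 0.18. Iba57 was lowest at 0.04. Of the 3 detected probes of the cysteine desulfurase gene Nfs1, the lowest gave -0.36 and the brightest 0.07, and their mean was -0.19.

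Of 14 genes of iron uptake, storage and sensing, 12 were detected on both arrays, with a median of 0.17. Of these, 9 lay above 0, against 41.8% of all genes. Slc40a1, which encodes the iron exporter ferroportin, was 1.58-fold higher in the knockout, at signals of 811 and 1460. Tfrc, the transferrin receptor gene, differed by 0.31 and 0.33 on its 2 probes, and the ferritin genes Ftl1 and Fth1 by 0.28 and 0.17. Pcbp2, an iron chaperone, was lowest at -0.17, with another probe at 0.12. Aco1, an iron-regulatory protein gene, was called in the knockout only, at signals of 96.0 and 102, too close for a fold.

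Haem breakdown had 3 genes, all detected on both arrays, with a median of -0.29. Hmox1, the inducible haem oxygenase, was 1.57-fold higher in the knockout at signals of 106 and 141, near background. Hmox2, the constitutive haem oxygenase, was 1.23-fold lower at 856 and 825, and Blvra, the reductase that makes bilirubin, 1.22-fold lower at 879 and 850. The 2 biliverdin reductases thus lay on opposite sides of 0. Genes that use haem to build haem A and cytochrome c stayed between Cox15 at -0.14 and Hccs at 0.07.

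Of 15 regulators and haem sensors, 14 were detected on both arrays, with a median of 0.05. Of these, 8 lay above 0, against 41.8% of all genes. Klf1, an erythroid transcription factor, was 2.72-fold higher in the knockout at signals of 119 and 237. Nfe2l2, a transcription factor of the oxidative stress response, differed by 0.41 and Pgrmc1, a haem-binding membrane protein gene, by 0.33. Bach1, a repressor that haem inactivates, was lowest at -0.33, with signals of 107 and 107. Gata1, the erythroid GATA factor gene, differed by 0.14, Eif2ak1, the haem-regulated kinase of translation, by -0.14 and Nrf1, which encodes NRF-1, by -0.23.

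**Figure D3:**
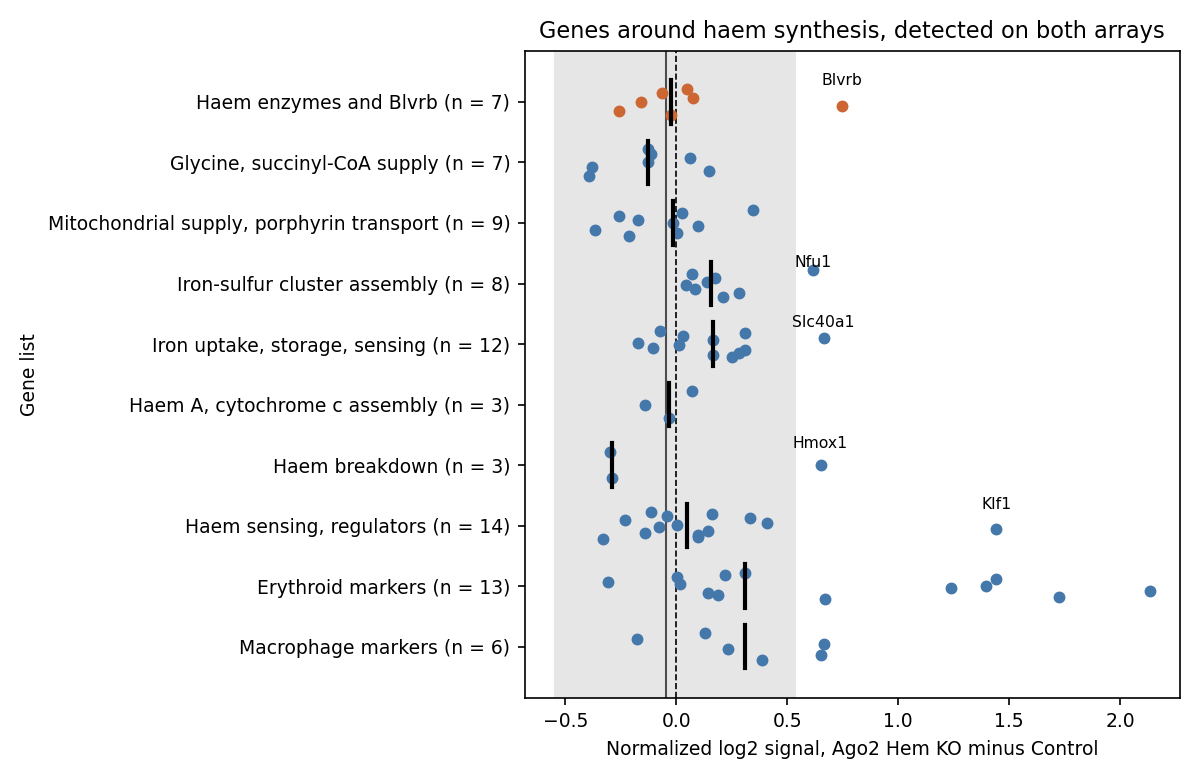
Normalized log2 difference, Ago2 Hem KO minus Control, of each gene detected on both arrays, by list, with black bars at list medians, the central 95% of all genes in grey and their median as a thin line. The haem enzymes cluster near 0 apart from Blvrb at 0.75, while erythroid markers reach 2.14.

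Most markers of red cells and macrophages that were detected on both arrays lay above 0, as Blvrb did, though by unequal amounts. Of 22 erythroid markers with a named probe, 13 were detected on both arrays, with a median of 0.31. Of these, 12 lay above 0, against 41.8% of all genes. The marker lists were chosen with earlier results of these data known, so their counts are a description only. Hba-a1, Car1, Klf1, Hbb-bt and Hbb-bs were at least 2-fold higher in the knockout, the α-globin gene Hba-a1 most at 4.39-fold. Others lay near 0 or below it, with Gata1 at 0.14, Hemgn at 0.02, Nfe2 at 0.002 and Icam4 at -0.31. Epor and the membrane genes Slc4a1, Rhag, Ermap and Ank1 had a called probe in the knockout only, as 4.95% of genes detected on either array did. Apart from Slc4a1, their bounds ran from 1.31-fold for Ank1 to 1.72-fold for Ermap. Slc4a1, at signals of 87.5 and 102, was too near the lowest called level for a bound. Rhd, Epb42, Trim10 and Add2 were called on neither array. The summed signal of the 22 erythroid markers above background was 6108 in the Control and 9104 in the knockout. Alas2 thus stood with the markers not detected, and Blvrb with those that were higher.

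Of 11 macrophage markers with a probe, 6 were detected on both arrays and 5 of these lay above 0, against 41.8% of all genes. None of them reached 2-fold, and Spic was lowest at -0.18. C1qa, C1qb, C1qc and Cd163 were detected in the knockout only, as 4.95% of genes detected on either array were. C1qb and C1qc, at signals of 93.9 and 164 and of 94.2 and 171, had bounds of 2.75-fold and 2.94-fold. These bounds hold for the reported processing, after background correction. C1qa and Cd163, at knockout signals of 108 and 108, had bounds of only 1.09-fold and 1.11-fold. The summed signal of the 11 macrophage markers was 1838 in the Control and 2583 in the knockout. Adgre1 was not detected on either array, and Hmox1 and Slc40a1 belong to this list as well as to those above. Likewise, Klf1, Gata1 and Nfe2 are counted among both the erythroid markers and the regulators, and Tfrc among both the erythroid markers and the iron genes. The summed signal of the 9 haem genes was 11460 in the Control and 10333 in the knockout, and without Alas1 it was 3814 and 3938. The part that erythroid or macrophage RNA had in the values of Blvrb, Hmox1, Slc40a1 and Tspo2 was not tested, and in a bulk sample more cells of a type and more RNA per cell cannot be told apart.

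Blvrb was the highest and Alas1 the lowest of the 7 genes in all 9 settings, the reported one included. Relative to the median of all genes in each setting, Blvrb lay between 0.56 and 0.80, Alas1 between -0.26 and -0.21 and Fech between -0.15 and -0.03. Ppox ran from -0.01 to 0.14 and Uros from 0.00 to 0.12 relative to it, both lowest with the mean of a gene's probes. In the authors' value table, which was not background corrected here, Blvrb differed by 0.62 on its brighter probe and by 0.14 on its dimmer one.

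**Figure D4:**
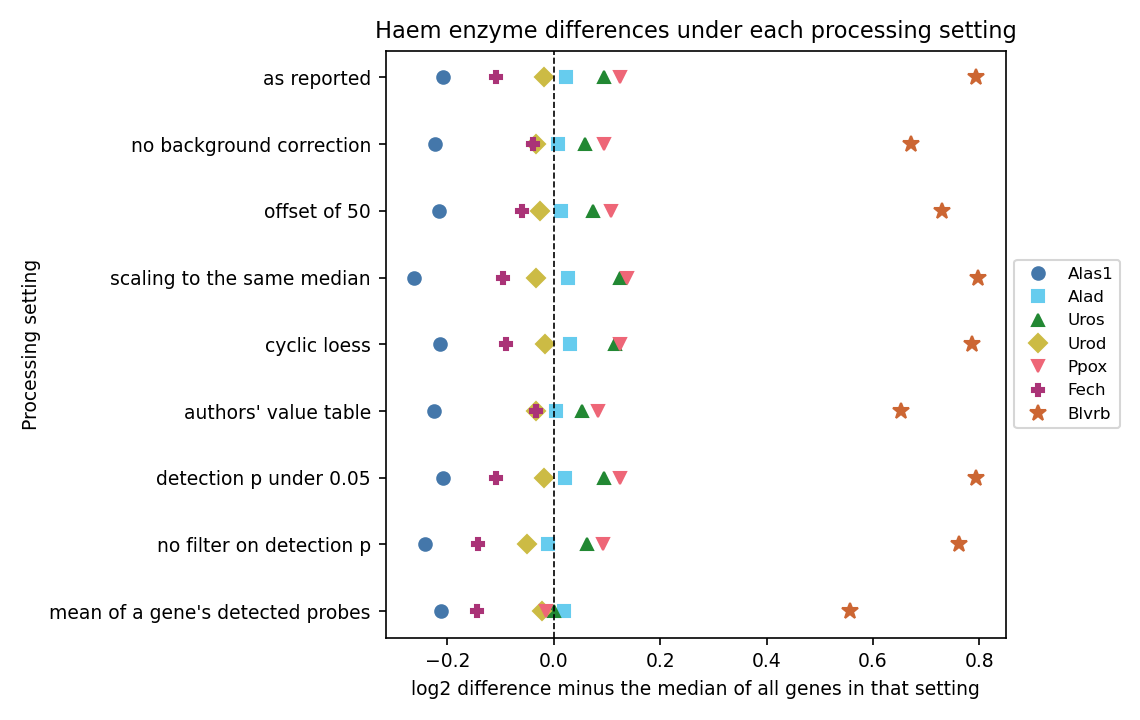
Log2 difference of each haem gene, Ago2 Hem KO minus Control, after subtracting the median of all genes, for the reported processing and 8 alternatives. Blvrb is highest and Alas1 lowest in each of them, and averaging the probes draws Blvrb in to 0.56.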

How the data were processed

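LSK cells of 1 Control and 1 Ago2 Hem KO sample were measured on 1 Illumina bead array each. Per the file headers, the authors deposited a non-normalized table of bead signal intensity on a linear scale and a detection p-value for each probe, whose steps match 936 negative controls. The submitters' processing notes name BeadStudio. A second table deposited by the authors holds intensity values whose columns share a distribution (medians 86.2 and 86.2), and its log2 served as an alternative. Its rank order matched that of the same array's signals, which settles its direction. Its values span the range of linear signals, while its normalization method was not stated.

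With limma 3.58.1 under R 4.3.3, background means were taken from the detection calls, the normexp model was applied, an offset of 16 added, the arrays quantile normalized and log2 taken. Quantile normalization removes a change shared by most genes, and the offset pulls dim probes towards no difference. Probes were named through the platform annotation (34885 with 1 symbol, 18 with several, 10378 with none), and 34807 of the probes with 1 symbol were matched by gene identifier to RefSeq GRCm38.p6. A gene takes its brightest probe among those with detection p under 0.01 on both arrays. For a gene called on 1 array, the bound divides the bright value by the dim array's lowest detected value, or by the dim probe's value where that is higher. Bounds use the background-corrected values of the reported processing and are not given for the alternatives. Levels of different probes were set side by side to choose a gene's brightest probe. They were added in the summed signals, where bright probes weigh most.

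The members and lists were chosen with earlier results of these data known. All members were named, and from each list around them the highest and lowest gene, those higher by 25% or lower by 20% or more and those called on 1 array. Genes named beyond these, Blvra, Slc25a37, Slc25a38, Glrx5, Iscu, Nfs1, Tfrc, Ftl1, Fth1, Gata1, Eif2ak1, Nrf1 and the markers, were picked for their role after their values were seen. The steps were tested on simulated arrays with preset fold changes. Noise in proportion to signal was set lower there than the spread between probes in these data, so precision is not judged from that test. Summed signals are normalized and less the offset. The alternatives left out the background correction, used an offset of 50, scaled both arrays to a common median, used cyclic loess, took the authors' value table, called probes at a detection p under 0.05 or without that filter, or averaged the detected probes of a gene.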

Additional observations from a re-analysis of the deposited data

How the results depend on the processing

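Under 8 alternatives none of the haem genes reached 2-fold in either direction, and Blvrb alone was higher by at least 25% in each. Scaling to the same median moved the median of all genes by 0.21 and that of the haem genes to 0.19, from -0.03, which is 0.03 above the median of all genes in that setting. The same scaling put Alad, Urod and Fech above 0, at 0.19, 0.13 and 0.07, and cyclic loess put Alad at 0.02. Averaging the detected probes put Uros and Ppox below 0, at -0.04 and -0.06, and Blvrb at 0.51. Of all genes, 25 were higher and 11 lower at 2-fold or more. Without background correction and in the authors' value table these counts were 6 and 0, with an offset of 50 they were 15 and 2, and with scaling to the same median 60 and 4. Klf1 was under 2-fold without background correction (0.81) and in the authors' value table (0.74), and in these settings Hmox1 was 0.27 and 0.24, Nfu1 0.28 and 0.25, Dld -0.16 and -0.14, and Bach1 -0.11 and -0.10. The cause of these moves was not tested. A value counted as moved where it shifted by more than the SD between probes of a gene, 0.207 on the log2 scale. Signal near background limits what can be said of dim genes, Alas2, Cpox, Fech, Hmox1, Nfu1, Dld, Bach1 and Klf1 among them. No paired analysis was possible because each genotype has 1 sample.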

Other observations

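Markers of the remaining cell types did not share a direction. Of 5 B cell markers detected on both arrays, 0 lay above 0, against 41.8% of all genes. Their median was -0.41, with Igll1, a pre-B receptor gene, at -0.79. Of 8 neutrophil markers, 2 lay above 0, against the same 41.8%, and the median was -0.06, with Retnlg lowest at -1.12. Some were bright on both arrays, S100a8 at signals of 12721 and 13036 and S100a9 at 4675 and 6406. Megakaryocyte markers had a median of -0.09 over 5 genes, from Gp1bb at -0.51 to Pf4 at 0.58. Mast cell and basophil markers had a median of 0.07 over 6 genes, with Mcpt8 highest at 0.46. T and NK cell markers had a median of -0.19 over 4 genes, and Cd3e, Cd3d and Cd3g were not detected on either array. Genes of the sorting gate and of early progenitors had a median of 0.24 over 5 genes, with Gata2 highest at 0.45. All 5 lay above 0, against 41.8% of all genes.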
